A study of Mus musculus with 6 samples.

Results

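GDNF, the glial cell line-derived neurotrophic factor, and the genes through which it acts on germ cells were described here in RNA labelled as from spermatogonia of wild-type and Zfp145 knock out mice. The 6 genes were chosen by name, as the ligand Gdnf, its receptor chains Gfra1 and Ret, and the induced transcription factors Etv5, Bcl6b and Lhx1. All probe sets annotated with 1 of these symbols alone were taken, which gave 12 of the 36701 probe sets of the series and 6 of its 15964 named genes. There were 6 on the chip U74Av2, 3 on U74Bv2 and 3 on U74Cv2. Gfra1 had 4 probe sets, Bcl6b 3, Gdnf 2, and Ret, Etv5 and Lhx1 had 1 each.

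The samples were total RNA, by their labels from spermatogonia, the dividing germ cells that precede meiosis, of mice 1 week old of mixed 129sv and C57Bl/6 background. The WT arrays carried RNA of wild-type mice, and the Null arrays RNA of mice with the Zfp145 knock out. Zfp145, now named Zbtb16 and known as PLZF, encodes a zinc finger repressor of undifferentiated spermatogonia. Each genotype had 1 array on each of the 3 chips, so a difference cannot be checked against replicates and p-values were not computed. The labels leave out how the spermatogonia were isolated, how many animals were used, whether the chips shared an extract and which part of the gene was deleted. Some genes of somatic cells had high signal in this RNA. The Sertoli cell gene Clu lay at the 99.6th percentile of signal on its chip, the myoid gene Mylk at the 99.9th and the macrophage gene Laptm5 at the 99.5th. Each is the brightest gene listed for its cell type, and other myoid and macrophage markers lay lower, some below the floor described further on. These percentiles do not measure how much of each cell type was present.

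GDNF is a growth factor secreted by the somatic cells that surround spermatogonial stem cells, above all Sertoli cells and peritubular myoid cells. It binds the membrane-anchored co-receptor GFRA1, and the pair activates the receptor tyrosine kinase RET, which signals through phosphoinositide 3-kinase, SRC family kinases and the RAS pathway. In cultured spermatogonial stem cells this raises the transcription factor genes Etv5, Bcl6b and Lhx1, which are known for their part in self-renewal.

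Promoter sequence was matched for 4 of the 6 genes, not for Ret and Bcl6b, in the RefSeq tables of the build GRCm38.p6. Those shown are the ligand gene, whose ratio was smaller than its spread, and the induced factors Etv5, whose ratio was also smaller than its spread, and Lhx1, whose signal was lower in the Null. Gdnf and Etv5 have 2 starts each in those tables, and the window of the one farthest upstream is shown. Each is the 250 bases before that start, 5′ to 3′ on the gene's own strand, and capitals mark matches on either strand to the CCAAT box (CCAAT), to the core of the cAMP response element (TGACGT) or to an ETS core (CCGGAA), so that a match on the opposite strand reads as the reverse complement. Gdnf lies at chr15:7809798-7810047 on the plus strand, Etv5 at chr16:22439571-22439820 on the minus strand and Lhx1 at chr11:84525535-84525784 on the minus strand.
Gdnf: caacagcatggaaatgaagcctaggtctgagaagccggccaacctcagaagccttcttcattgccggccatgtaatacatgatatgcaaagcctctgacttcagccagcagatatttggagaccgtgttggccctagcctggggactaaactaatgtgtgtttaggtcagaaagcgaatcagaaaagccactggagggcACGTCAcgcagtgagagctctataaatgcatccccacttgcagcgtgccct
Etv5: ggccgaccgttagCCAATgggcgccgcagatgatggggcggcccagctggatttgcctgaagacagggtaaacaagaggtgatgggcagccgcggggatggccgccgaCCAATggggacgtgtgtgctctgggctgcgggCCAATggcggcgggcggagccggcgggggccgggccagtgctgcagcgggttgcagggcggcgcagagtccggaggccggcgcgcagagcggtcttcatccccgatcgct
Lhx1: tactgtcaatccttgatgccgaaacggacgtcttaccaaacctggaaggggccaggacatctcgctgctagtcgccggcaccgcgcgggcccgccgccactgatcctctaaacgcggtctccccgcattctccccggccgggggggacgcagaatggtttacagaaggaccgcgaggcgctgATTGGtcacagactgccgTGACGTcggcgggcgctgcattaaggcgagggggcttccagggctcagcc

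The Gdnf window held 1 TGACGT match, which begins 51 bases before the start. The Lhx1 window also held 1, 50 bases before the start, and 1 CCAAT box. The Etv5 window held 3 CCAAT boxes and no TGACGT. At the other start Gdnf had 1 CCAAT box and no TGACGT, and Etv5 had 1 CCAAT box and no TGACGT. None of these windows matched CCGGAA. The window of Gfra1, the matched gene not printed, held 1 CCGGAA match, 156 bases before the start, and 1 CCAAT box. Of 32851 RefSeq windows of the same length, 33.9% held CCAAT, 6.47% held TGACGT and 12.03% held CCGGAA. The matches describe these letters only, since the arrays measured transcript signal and not binding.

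Signal is given as the deposited intensity, a linear value in arbitrary units. Each chip was compared on its own, because probe sets differ in how strongly they bind and no probe set's level can be set against another's. A floor at the 40th percentile of each chip stood at 98.3 on U74Av2, 165 on U74Bv2 and 124 on U74Cv2. Of the 12 member probe sets, 5 lay above it on both arrays, 2 on 1 array only, and 5 on neither. Where 1 array is at the floor the ratio is a bound, and where both are there is no ratio and no order. The error set beside each ratio comes from differences in log2 ratio between probe sets that target a common gene on that chip. It was taken within low, middle or high signal. The median absolute difference was scaled to the standard deviation of a single probe set's ratio, which is smaller than that of a difference. Called the spread here, this error holds technical noise and transcript differences but no variation among animals.

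**Figure D1:**
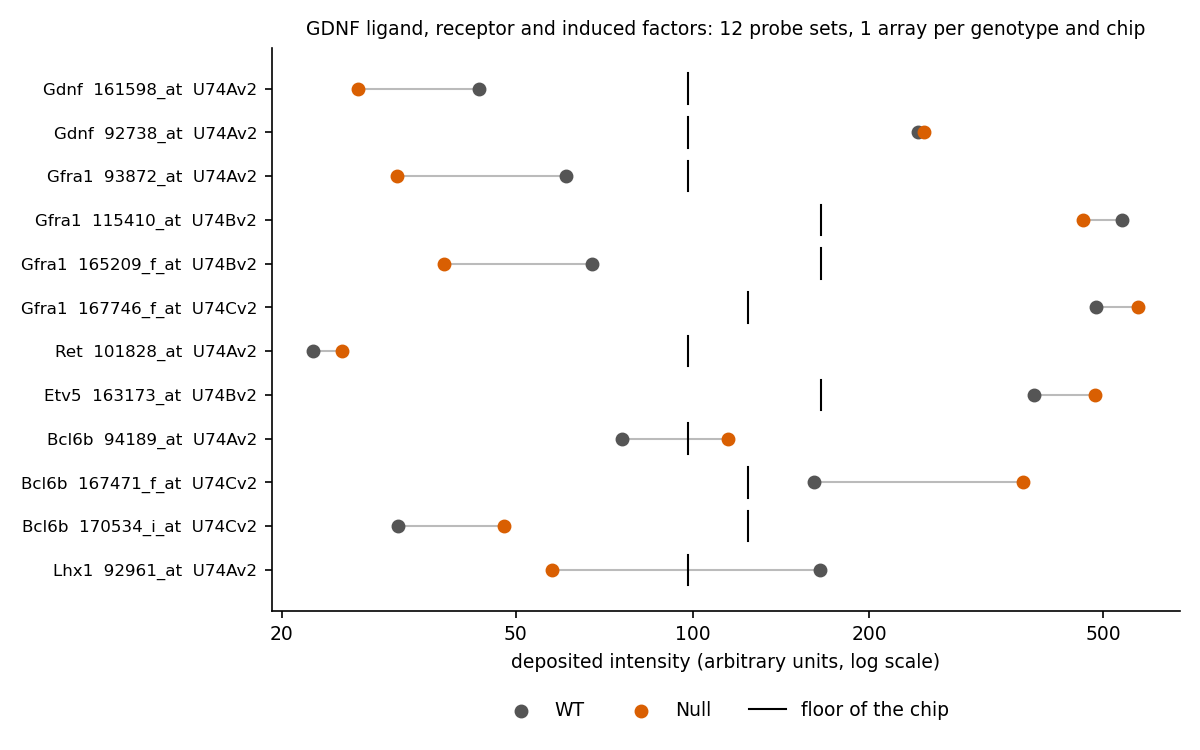
Deposited intensity (arbitrary units, log scale) of each of the 12 member probe sets on the WT array (grey) and the Null array (orange), with the floor of the chip as a vertical bar. Lhx1 and the U74Cv2 probe set of Bcl6b show the widest gaps among probe sets above the floor on at least 1 array, in opposite directions, while the brighter Gdnf probe set reads 242.1 and 247.4.

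The targeted gene had lower signal on the Null arrays. On U74Av2 a Zbtb16 probe set read 770.2 on the WT array and 158.1 on the Null array, a log2 ratio of -2.29 against a spread of 0.26. On U74Cv2 another read 1156.8 and 510.8, a log2 ratio of -1.20 against a spread of 0.44, with the Null value 4.05 times the floor. The remaining one, on U74Av2, read 50.6 and 16.7, below the floor on both arrays. The first became a bound of -1.38 with a floor at the 60th percentile.

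The ligand differed little. Gdnf read 242.1 on the WT array and 247.4 on the Null array of U74Av2, a log2 ratio of 0.02 against a spread of 0.35. In bulk RNA, fewer cells of a type and less RNA per cell cannot be told apart. The other Gdnf probe set read 43.3 and 27, below the floor on both arrays. Markers of the cells that make GDNF had these levels beside it. Sertoli cell markers were above the floor for 15 of 15 genes, with a median log2 ratio of -0.19 and 11 ratios below 0. Of all 12447 measured genes, 6415 had a ratio below 0. Summed intensity of the Sertoli markers was 52918 in the WT and 44674 in the Null over 11 genes on U74Av2. It was 3108 and 3463 over 2 on U74Bv2, and 6617 and 6177 over 2 on U74Cv2. Clu, Aard and Cst9 made up most of the U74Av2 sum. Rhox5, a homeobox gene of Sertoli cells, was the Sertoli marker at least 2-fold different. It read 1071.6 on the WT array and 523.7 on the Null array of U74Av2, a log2 ratio of -1.04 against a spread of 0.26. Of the probe sets of middle signal on that chip, 0.345% stood at least 2-fold lower. Peritubular myoid markers were above the floor for 6 of 8 genes, with a median of 0.08, and their sum over 5 genes on U74Av2 was 5769 in the WT and 5752 in the Null, while Mylk, the 1 gene on U74Bv2, read 10125 and 7879. The brightest myoid markers were the kinase gene Mylk at -0.37, with -0.16 and -0.14 by its other probe sets, and the smooth muscle actin gene Acta2 at -0.11, and a second probe set of Acta2 gave 0.67. The part of these cells in the Gdnf signal was not tested.

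The co-receptor gave small ratios of opposite sign on different chips. Gfra1 read 537.8 on the WT array and 461.9 on the Null array of U74Bv2, a log2 ratio of -0.22 against a spread of 0.34. On U74Cv2 it read 486.1 and 573.9, a log2 ratio of 0.22 against a spread of 0.44. Both ratios are smaller than the spread at their level, and their mean is -0.00. The U74Cv2 probe set carries the suffix _f_at, which marks probes shared within a sequence family, and the U74Bv2 one has no suffix. Another probe set on U74Bv2 read 67.4 and 37.7 and one on U74Av2 read 61 and 31.4, all below the floors.

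RET, the signalling chain of the receptor, was not measured. Its only probe set read 22.6 in the WT and 25.3 in the Null on U74Av2, where the floor was 98.3. These readings lie at the 18.8th percentile of signal on that chip, so the arrays bear on neither a difference nor its absence for Ret.

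Etv5, an ETS family transcription factor that Sertoli cells also express, read 380.7 in the WT and 483.5 in the Null on U74Bv2. The Null array was the higher, by 1.27-fold, a log2 ratio of 0.34 against a spread of 0.36. Over probe sets of low signal, the central 90% of ratios on the chip ran from -0.66 to 0.70, and Etv5 lies inside it. The value rests on 1 probe set, with no suffix.

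Bcl6b, a BTB domain zinc finger repressor of the same protein family as Zbtb16, was the member with a ratio of at least 2-fold. On U74Cv2 it read 160.7 in the WT and 365.3 in the Null. The Null array was 2.24-fold higher, or 1.16 on the log2 scale, against a spread of 0.58. On that chip 5.68% of the probe sets above the floor on at least 1 array stood 2-fold or more above the WT in the Null, and 9.42% of those of low signal. The central 90% of ratios at low signal ran from -1.13 to 1.15, so Bcl6b lay just past its upper end. The probe set carries the suffix _f_at. On U74Av2 a probe set with no suffix read 75.8 and 114.8, with the WT array at the floor, so that the Null array was at least 1.16-fold higher, a bound of 0.22 on the log2 scale. The remaining one read 31.5 and 47.7 on U74Cv2, below the floor on both arrays. The 2-fold difference was therefore measured on 1 chip and 1 probe set, and a floor at the 60th percentile made it a bound of 0.22.

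Lhx1, a LIM homeobox transcription factor, read lower on the Null array. Its only probe set read 165 in the WT and 57.7 in the Null on U74Av2, and the Null value was below the floor of 98.3. The Null array was thus at least 1.68-fold lower, a bound of -0.75 on the log2 scale against a spread of 0.35. Of the probe sets of this chip above the floor on at least 1 array, 0.575% read at least 2-fold lower in the Null and 4.05% at least 1.5-fold lower. Among those of low signal, as Lhx1 is, 1.09% read at least 2-fold lower. The spread was taken from probe sets above the floor on both arrays, which Lhx1 was not. Under a floor at the 20th percentile both readings lay above it and the log2 ratio was -1.52. The probe set has no suffix and lies at the 41.2th percentile of signal on the chip.

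Of the 7 member probe sets above the floor on at least 1 array, 5 had ratios above 0 and 2 below 0. With 1 probe set per gene, 4 of the 5 measured members were above 0, Gdnf by 0.02. Of all 12447 measured genes, 48.5% were above 0. At least 2-fold higher signal in the Null was found on U74Av2 for 0 of 3 members (0.332% of the probe sets above the floor on at least 1 array), on U74Bv2 for 0 of 2 (0.815%) and on U74Cv2 for 1 of 2 (5.68%). At least 2-fold lower signal was found for none of the 7, against 0.575%, 1.0% and 5.46% of the same probe sets. Lhx1 entered this count by its bound. Under a floor at the 20th percentile its log2 ratio was -1.52 and the count was 1. Only the ratios of Lhx1 and of Bcl6b on U74Cv2 exceeded the spread at their level. The spread is a standard deviation, so exceeding it is common, and the share of all probe sets that did was not counted. At low signal on U74Av2 the 5th and 95th percentiles of ratios were -0.65 and 0.60, against a spread of 0.35. On U74Cv2 they were -1.13 and 1.15, against 0.58. Bcl6b, at 1.16, lay just past this range, and Lhx1 lay past its own by its bound of -0.75. These ranges hold probe sets above the floor on both arrays, which Lhx1 was not. Among the induced factors Bcl6b was higher and Lhx1 lower in the Null, and Etv5 stayed within its spread.

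**Figure D2:**
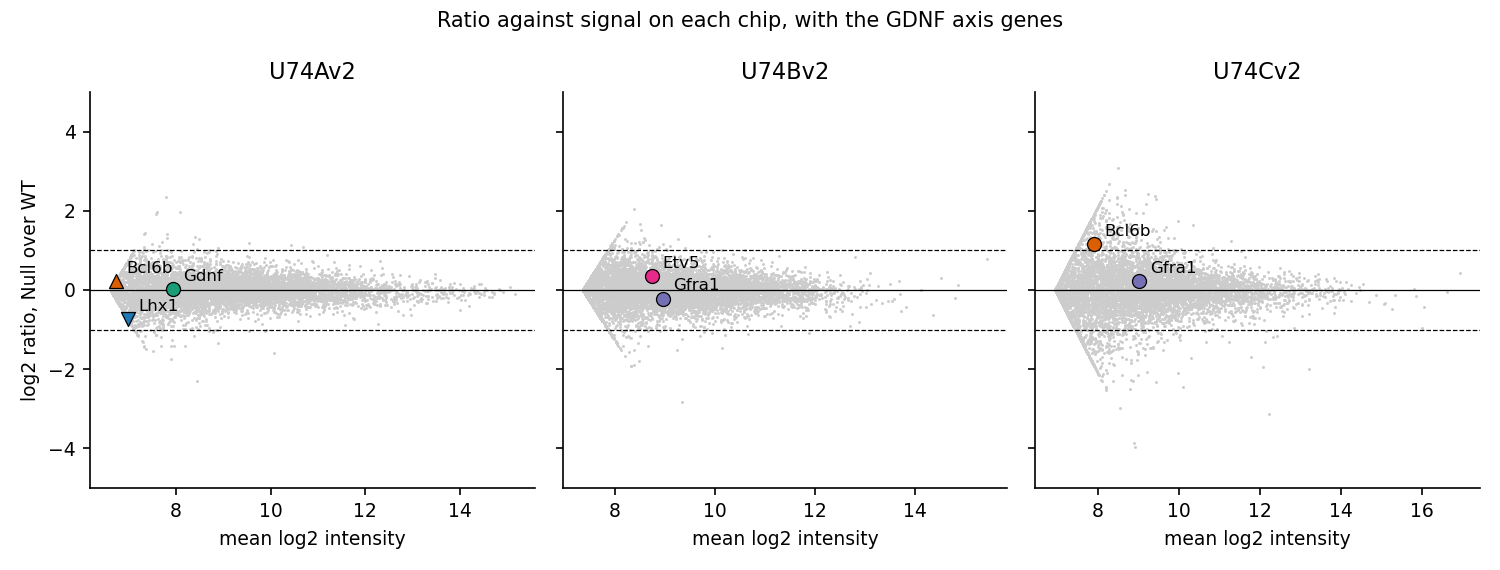
Log2 ratio of Null over WT against mean log2 intensity (values under the floor raised to it) for all probe sets above the floor on at least 1 array (grey), with the members in colour, on the 3 chips. Circles are members above the floor on both arrays, triangles are bounds pointing up (WT at the floor) or down (Null at the floor), and dashed lines mark 2-fold. Bcl6b on U74Cv2 lies past 2-fold among many dim grey points, and the other members lie inside it.

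Genes nearest to the members in signal were sought over the 2 arrays of a chip, by distance on the log2 scale. For Gdnf these were Snx5 (0.01) and Atp6ap2 (0.02), and 39 genes lay within 0.1. For Gfra1 on U74Bv2 they were Slc39a10 (0.01) and Tctn1 (0.02), with 40 genes within 0.1, and on U74Cv2 Chmp1a (0.01) and Gtsf1l (0.01), with 29. For Etv5 they were Cyp4f16 (0.01) and Mob3a (0.01), with 33. For Bcl6b on U74Cv2 they were Stx3 (0.01) and Ubap2l (0.04), with 9. Intensities of different probe sets do not compare transcript levels, so this nearness describes only how crowded the chip is at that signal.

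The relatives of GDNF and of its co-receptor showed no 2-fold difference. Of 8 ligand and co-receptor genes listed, 7 were matched to a probe set and all 7 were above the floor. Their median log2 ratio was -0.12, with 3 above 0 and 4 below 0, where the median over all 12447 measured genes was -0.01. The brightest were Gfra4, the co-receptor of persephin, at 908.8 in the WT and 986.7 in the Null (0.11), and Gfra2, the co-receptor of neurturin, at 618.7 and 681.4 (0.13). A second Gfra2 probe set gave -0.22. The lowest, singled out after its value was seen, was the ligand gene Pspn, persephin, at 322.7 and 200.8, a log2 ratio of -0.69 against a spread of 0.35.

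Genes that carry the RET signal had a median of 0.01. Of 38 adaptors, kinases and RAS pathway genes listed, 29 were matched and 28 were above the floor, with 16 ratios above 0 and 12 below, between -0.56 and 0.43. None was 2-fold different. The brightest were Ptpn11, the phosphatase SHP2, at 4179.6 in the WT and 3653 in the Null (-0.20), and the kinase gene Src at 2080.5 and 2440.3 (0.23). The other probe sets of Ptpn11 gave 0.36 and 0.02. The sign of this median turned in 4 of 10 other settings, which were quantile normalization, loess, probe sets without suffix and U74Av2 alone, over a range from -0.01 to 0.06.

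Of 11 other genes listed as reported to respond to GDNF in cultured stem cells, 9 were matched to a probe set and 8 were measured. Their median was -0.06, with 3 ratios above 0 and 5 below. The brightest were Fos, the immediate early factor, at 3049.1 in the WT and 3650.9 in the Null (0.25), and Mycn, a MYC family factor, at 534.3 and 749 (0.48 against a spread of 0.26). Under a floor at the 60th percentile only 2 genes were left and the median was 0.36. Of 12 feedback and target genes of the ERK pathway, 11 were matched to a probe set and all 11 were measured. Their median was 0.04, with 6 above 0 and 5 below. Among them Spred2, an inhibitor of RAS signalling, read 243 and 515 on U74Cv2, a log2 ratio of 1.06 against a spread of 0.58, while its other probe sets gave 0.37 and -0.14, and under a floor at the 60th percentile its ratio was a bound of 0.72. This median turned below 0 under a floor at the 60th percentile and on U74Av2 alone, with -0.07 as the lowest value, and was 0.26 with gene means, the highest. Of 10 growth factor genes of the stem cell niche, 9 were matched to a probe set and 8 were measured, with a median of -0.11. Vegfa was at least 2.64-fold lower on U74Cv2, at 327.1 in the WT and 88.6 in the Null, below the floor. That bound was -0.09 with the floor raised to the 60th percentile. Spred2 and Vegfa were both measured by probe sets of low signal on U74Cv2, where 9.42% stood at least 2-fold higher and 8.77% at least 2-fold lower.

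**Figure D3:**
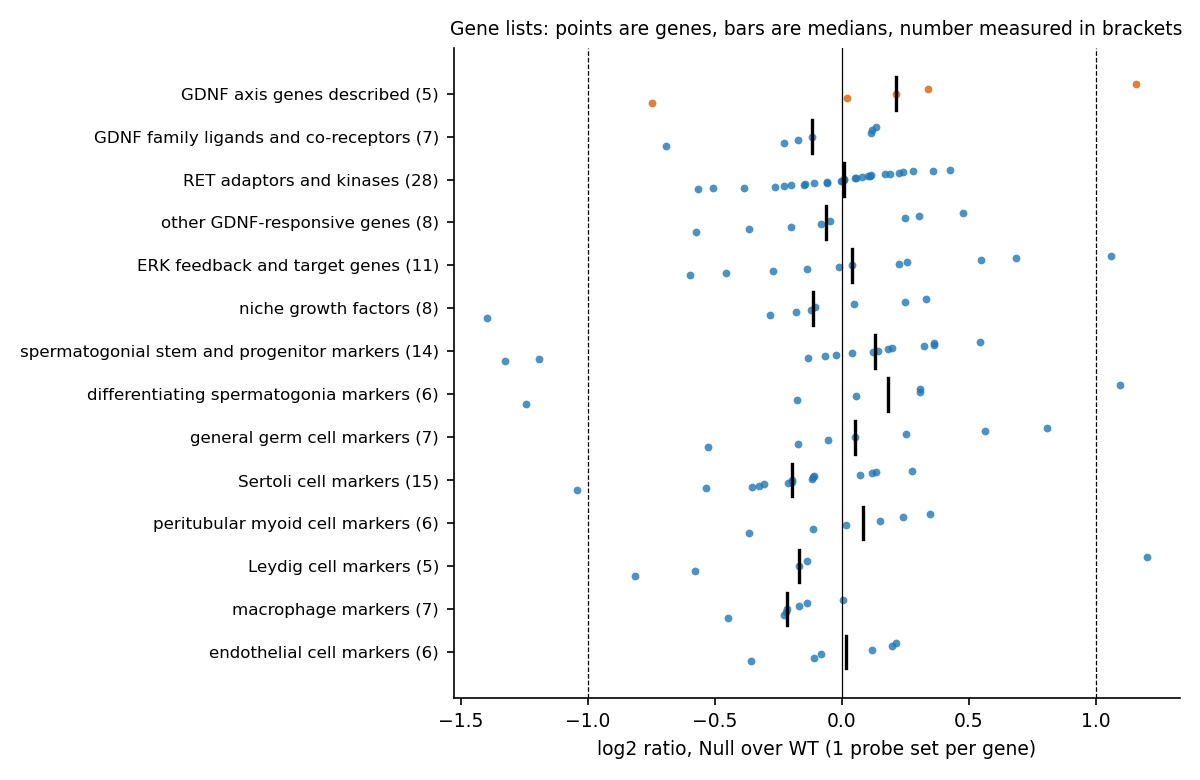
Log2 ratio of Null over WT for each measured gene (points, 1 probe set per gene, bounds included) in each list, with the median as a black bar and 2-fold as dashed lines. The 5 measured genes of the GDNF axis, in orange, run from -0.75 for Lhx1 to 1.16 for Bcl6b, and the 28 genes of RET signalling lie between -0.56 and 0.43.

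Gfra1, Etv5, Bcl6b and Lhx1 are genes of undifferentiated spermatogonia, so the germ cell content of the RNA stands beside them. Of 18 stem and progenitor markers listed, 15 were matched to a probe set and 14 were above the floor. Their median was 0.13, with 9 ratios above 0 and 5 below. Summed intensity was 13512 in the WT and 14469 in the Null over 6 genes on U74Av2, 2399 and 3204 over 3 on U74Bv2, and 4951 and 3151 over 5 on U74Cv2. Uchl1, at 6045.1 and 6711.5, and Itgb1, at 5621.6 and 5573.1, made up most of the U74Av2 sum. The zinc finger gene Sall4 made up much of the U74Cv2 sum, at 2568.1 in the WT and 1042.1 in the Null. Its log2 ratio there was -1.32 against a spread of 0.32, by a probe set with the suffix _r_at, while its other probe sets gave 0.27 and 0.63. Of the probe sets of high signal on U74Cv2, 1.12% stood at least 2-fold lower. The pluripotency factor gene Pou5f1 was at least 2.28-fold lower on U74Cv2, with 0.17 by its other probe set. Sall4 and Pou5f1 were the 2 of the 14 genes at least 2-fold different. Among the 9 above 0, Lin28a was the highest at 0.55, with 0.99 by its other probe set. Foxo1 stood at 0.36, with 0.25 by its other probe set, and Cd9 at 0.33 against a spread of 0.17. Thy1, a surface marker of this fraction, was below the floor. For markers of differentiating spermatogonia, 6 of 6 measured, the median was 0.18. Ccnd2, cyclin D2, read 1122.9 in the WT and 2412.9 in the Null on U74Av2 (1.09 against a spread of 0.17). Of the probe sets of high signal on that chip, 0.0838% stood at least 2-fold higher. The protease gene Prss50 was at least 2.37-fold lower on U74Cv2. Both Pou5f1 and Prss50 had low signal on U74Cv2, where 8.77% of such probe sets stood at least 2-fold lower. They were at the floor on both arrays once the floor was set at the 60th percentile. Of 12 general germ cell markers listed, 7 were matched to a probe set and all 7 were above the floor. Their median was 0.05, with 4 above 0 and 3 below, between -0.53 and 0.81. Mael, of the piRNA pathway, had the highest ratio, and the RNA-binding protein gene Dazl stood at 0.56, with -0.32 by its other probe set. The brightest were the piRNA pathway helicase gene Mov10l1 at 0.05, with -0.64 by its other probe set, and the surface protein gene Tex101 at -0.53. This median was 0.56 over 4 genes without U74Cv2 and -0.05 over 7 with gene means. The part of germ cell content in the members' ratios was not tested.

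Markers of further cell types were present too. Of 7 Leydig cell markers listed, 6 were matched to a probe set and 5 were above the floor. Their median was -0.17, with 1 ratio above 0 and 4 below. The steroid synthesis genes Cyp11a1 and Hsd3b1 stood at -0.81 and -0.58. The 1 above was Hsd17b3, an enzyme of testosterone synthesis, at 1.20 against a spread of 0.35 on U74Av2. Of the probe sets of low signal on that chip, 0.578% stood at least 2-fold higher. A floor at the 60th percentile made the Hsd17b3 ratio a bound of 0.10. Macrophage markers were above the floor for 7 of 8, with a median of -0.21, and the brightest were Laptm5 at -0.45, with -0.01 and -0.19 in other probe sets, and Cx3cr1 at -0.14, with -0.27. Endothelial markers were above it for 6 of 7, with a median of 0.02, and the brightest were Eng at 0.12, with 0.48 in another probe set, and Egfl7 at -0.36, with 0.18.

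Where they had a value, the ratios of Gdnf, Gfra1 and Etv5 moved by less than their spread, while those of Bcl6b and Lhx1 moved with the floor. Under a floor at the 60th percentile Gdnf, Lhx1 and the U74Av2 probe set of Bcl6b were at the floor on both arrays and had no value. Over the settings that gave a value, Gdnf ran from 0.02 to 0.05, Gfra1 from -0.25 to -0.22 on U74Bv2 and from 0.19 to 0.24 on U74Cv2, and Etv5 from 0.31 to 0.34. Bcl6b on U74Cv2 ran from 0.22 to 1.18, and Lhx1 from -1.52 to -0.48.

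**Figure D4:**
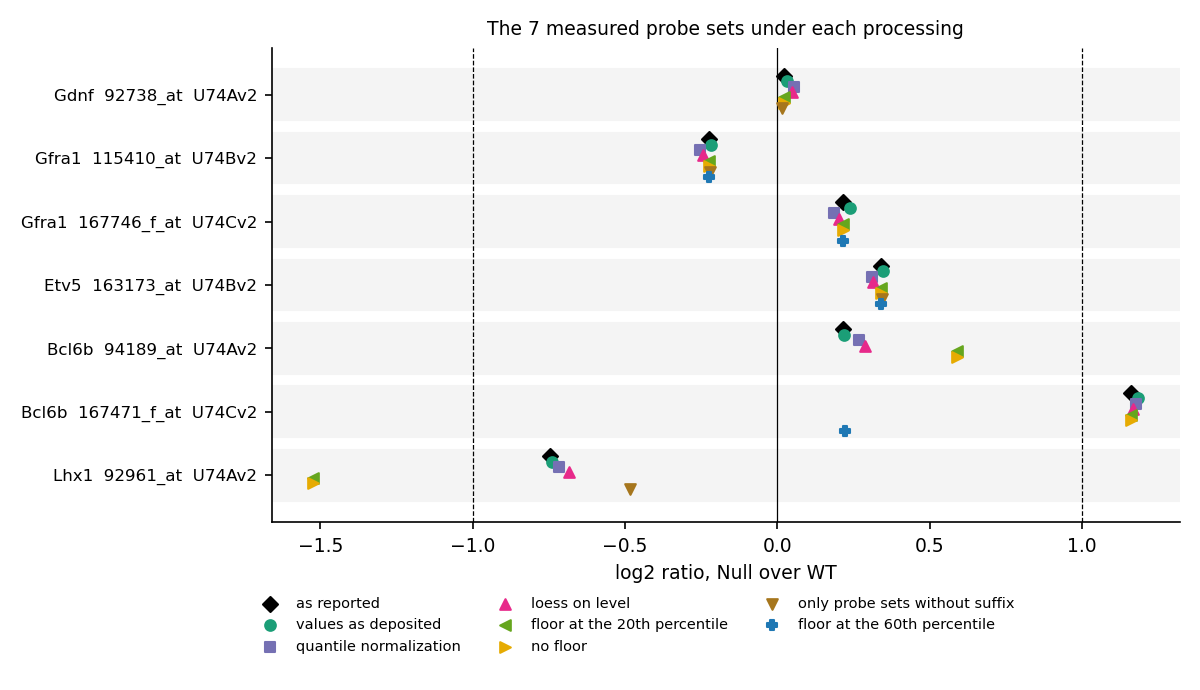
Log2 ratio of Null over WT of the 7 measured member probe sets under the processing used here (black diamonds) and each alternative that gave a value, with 2-fold as dashed lines. Every point of a probe set lies on the same side of 0, and the widest shifts are those of Lhx1 and Bcl6b with the floor.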

How the data were processed

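The values are the series' deposited intensities, linear and per probe set, used as the authors gave them. Software and background correction are not given in the sources used. Trimmed means (without the lowest and highest 2%) of 500.1 to 500.3 on the 6 arrays show that the deposited intensities were scaled array by array. On each chip 66 control probe sets were left out. Null values were divided by the median Null to WT ratio over probe sets of above-median mean rank (log2 shifts 0.01, 0.00 and 0.02), then values below the floor were set to the floor before taking log2 of Null over WT. The steps were tested on simulated data, with large changes placed in bright probe sets only, so the test did not cover dim signal near the floor. No test across arrays was possible, so ratios of at least 2-fold were counted.

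Probe sets were named by GEO's platform annotation, and all 6 members had the same symbol in RefSeq (GRCm38.p6). A listed gene stands for its probe set of highest signal percentile. Named genes are all members, Zbtb16, up to 4 genes per list at least 2-fold different or else the 2 brightest, and the 2 nearest genes per member. Clu, Aard, Cst9, Uchl1, Itgb1, Lin28a, Foxo1, Cd9, Mael, Dazl, Cyp11a1 and Hsd3b1 were named after their values were seen. Members and lists were chosen with earlier results of these data known. Alternatives were values as deposited, quantile normalization, loess, other floors, other thresholds, probe sets without suffix, fewer chips and gene means. Python 3.11.15, numpy 2.4.6, pandas 2.3.3 and statsmodels 0.14.6 were used.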

Additional observations from a re-analysis of the deposited data

How the results depend on the processing

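Precision is limited by 1 array per genotype and chip and by dim signal near the floor. No paired analysis was possible because each group holds 1 array. Under a floor at the 20th percentile, or none, Lhx1 stood at -1.52 and Bcl6b on U74Av2 at 0.59. Under a floor at the 60th percentile Bcl6b on U74Cv2 was a bound of 0.22, and Gdnf, Lhx1 and Bcl6b on U74Av2 were at the floor on both arrays. The count of member probe sets at least 2-fold higher, 1 as reported, was 0 with that floor, without suffixed probe sets, at 3-fold and without U74Cv2, the last chosen after the data were seen. The count at least 2-fold lower, 0 as reported, was 1 under a floor at the 20th percentile, under no floor and at 1.5-fold. The median of other GDNF-responsive genes was 0.36 over 2 genes under a floor at the 60th percentile. That of general germ cell markers was 0.56 over 4 genes without U74Cv2 and over 2 genes with U74Av2 alone. In the other 38 values the member ratios moved by less than their spread, and 137 of 140 list medians moved by less than 0.34.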
